A study of Homo sapiens with 6 samples.

Results

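The amino acid transporters of the SLC3, SLC6, SLC7, SLC36, SLC38 and SLC43 families were compared between NOZ-R and NOZ cells. They were taken as every row of the count table whose symbol belongs to one of these families, which gave 52 of 63140 genes. The SLC1 glutamate and neutral amino acid transporters are not among them. NOZ-R is a gallbladder cancer line made resistant to the nucleoside analogue gemcitabine by raising the dose in steps. NOZ is the established parental line. Each line was sequenced as 3 libraries of poly-A RNA. The sources used here do not give the drug doses, whether drug was present at harvest or whether NOZ-R is 1 clone. Nor do they say whether replicates came from separate cultures, so the p-values cover the spread among these libraries alone, which may be technical.

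Amino acids cross the plasma membrane through carriers that differ in substrate and in what drives them. The SLC7 light chains exchange 1 amino acid for another and reach the cell surface only when joined to a heavy chain of the SLC3 family. The SLC38 and SLC6 carriers use the sodium gradient, the SLC36 carriers use protons, and the SLC43 carriers work by facilitated diffusion. When amino acids run short, the kinase GCN2 leads to more ATF4 protein, a transcription factor that binds C/EBP-ATF response elements. SLC3A2, SLC7A5, SLC7A1, SLC7A11, SLC38A2 and SLC6A9 are known targets of this response in other cells. Some members of these families carry other solutes, such as taurine, creatine, GABA, monoamines and nucleobases.

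Of the 52 genes, 24 had enough counts to be tested, 18 had some counts but too few, and 10 had 0 counts in every library. Among the 24 tested genes, 9 were higher and 8 lower in NOZ-R and 7 did not pass (quasi-likelihood test of edgeR, Benjamini-Hochberg adjusted over all tested genes, threshold 0.05). Across all 14386 tested genes 60.2% passed, 30.4% as higher and 29.8% as lower, so differences between the lines were common in general. The lines did not overlap in 18 of the 24 transporter genes, against 65.3% of all tested genes. Among the transporter genes, 5 called higher and 2 called lower had an estimate of 2-fold or more, against 8.96% called higher and 7.57% called lower by that much among all tested genes. The median log2 fold change was 0.08 over the tested transporter genes and -0.01 over all tested genes. With library size as the only scaling, the median over all genes became -0.14, and 8 transporter genes were higher and 11 lower, beside 3316 and 5468 over all genes. On log2(FPKM + 1), where the pseudocount shrinks the change of low genes, limma gave 1.64 for SLC7A2, -1.37 for SLC6A20, 1.122 for SLC6A9, 0.70 for SLC7A6, -0.63 for SLC36A4, -0.35 for SLC43A2 and 0.30 for SLC36A1, all still past the test.

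**Figure D1:**
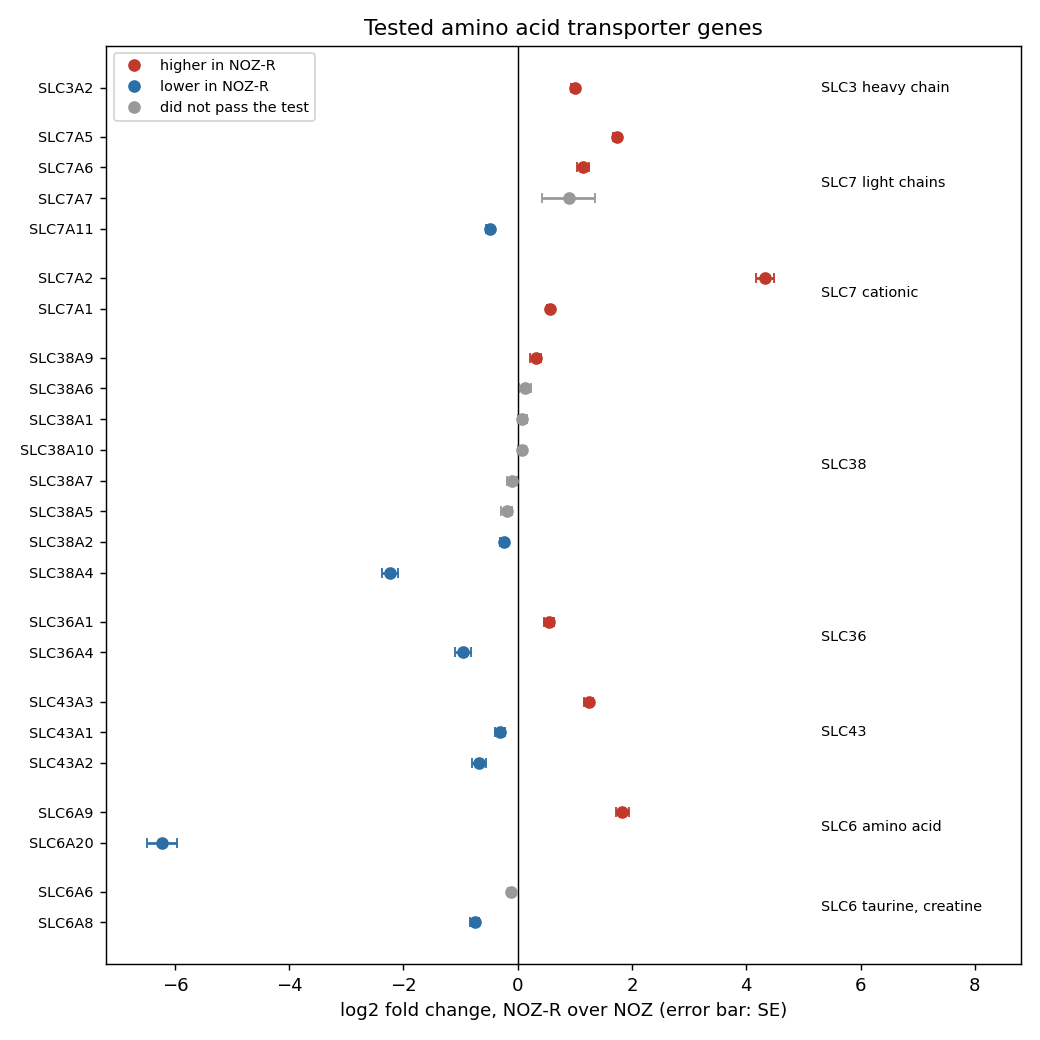
Log2 fold change of NOZ-R over NOZ for the 24 tested transporter genes, grouped by family, with SE as error bars (edgeR, 3 libraries per line). SLC7A2 has the highest and SLC6A20 the lowest value, at 4.33 and -6.23.

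Total counts lay between 15661532 and 18855409 in NOZ-R and between 14136037 and 19244923 in NOZ. NOZ replicate 2 stood apart in GC content: the rank correlation across genes of its deviation from its line with transcript GC was -0.512, against 0.322 and 0.376 for NOZ replicates 1 and 3. Leaving it out kept all 17 calls and gave 11 higher and 10 lower transporter genes (4634 and 4328 over all genes). The 6 epithelial markers summed to 3222 to 3317 CPM (counts scaled to the library's size) in NOZ-R and 2287 to 2766 CPM in NOZ. CDH1 had no more than 7 counts per NOZ-R library and 26 per NOZ library. Of these 6 markers, 3 were called higher and 2 lower in NOZ-R, beside 30.4% and 29.8% of all tested genes. EPCAM had 873, 790 and 766 counts in NOZ-R and 1276, 1532 and 1043 counts in NOZ. The 5 fibroblast markers summed to 1.55 to 2.28 CPM in NOZ-R and 0.249 to 0.608 CPM in NOZ, and COL1A2, THY1, DCN and LUM were at 0 in every NOZ library. The 5 leukocyte markers summed to 3.31 to 3.75 CPM in NOZ-R and 6.08 to 11.1 CPM in NOZ, mostly from CD79A, and the 3 endothelial markers stayed under 1 CPM in every library. The part of other cells in the values below was not tested. In bulk RNA, fewer cells with a transcript and less of it per cell cannot be told apart.

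The promoters below are printed because they are the promoters of higher transporter genes that hold the C/EBP-ATF response element, searched as TGATGNAA on both strands. Sequences are from RefSeq on GRCh38.p14, 250 bases before to 50 after an annotated start. Capitals mark that element and the antioxidant response element core, searched as TGACNNNGC. The SLC3A2 sequence is chr11:62881449-62881748 on the plus strand, at 1 of several starts annotated for the gene, and the SLC7A1 sequence is chr13:29595639-29595938 on the minus strand.
SLC3A2: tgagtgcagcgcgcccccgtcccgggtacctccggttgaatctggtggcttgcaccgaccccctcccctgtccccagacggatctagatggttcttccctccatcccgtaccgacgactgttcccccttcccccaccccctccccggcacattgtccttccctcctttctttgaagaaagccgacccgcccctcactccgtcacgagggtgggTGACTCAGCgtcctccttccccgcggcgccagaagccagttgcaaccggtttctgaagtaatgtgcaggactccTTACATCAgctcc
SLC7A1: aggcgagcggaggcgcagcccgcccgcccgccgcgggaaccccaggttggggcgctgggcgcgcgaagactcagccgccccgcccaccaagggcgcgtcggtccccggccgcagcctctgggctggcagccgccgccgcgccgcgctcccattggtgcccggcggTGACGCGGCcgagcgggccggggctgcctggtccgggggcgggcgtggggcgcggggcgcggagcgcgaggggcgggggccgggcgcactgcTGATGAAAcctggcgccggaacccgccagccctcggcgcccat
In SLC3A2 the C/EBP-ATF match lies on the minus strand at bases 38 to 45 after the start, and in SLC7A1 it lies on the plus strand at bases 8 to 15. The other match ends 29 bases before the start in SLC3A2 and 77 bases before it in SLC7A1. Promoters were found for 38 of the 52 genes. The C/EBP-ATF element stood in 3 of their 54 promoters, those of SLC3A2, SLC7A1 and SLC38A1, and in 3.62% of all 35116 promoters. The antioxidant core stood in 5 of the 54, those of SLC3A2, SLC7A1, SLC7A5, SLC7A6 and SLC7A7, and in 13.3% of all promoters. SLC6A6, SLC7A2, SLC7A11 and SLC43A3 had no entry. A match is a string of letters, not a shown binding site, and its part in the values was not tested.

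The heavy chain and its leucine-carrying partner rose together in NOZ-R. SLC3A2 (chromosome 11, 62856102 to 62888875) encodes the heavy chain 4F2hc, also called CD98. It measured 224, 233 and 228 CPM in the NOZ-R libraries, against 122, 105 and 116 CPM in the NOZ libraries. Every NOZ-R library lay above every NOZ library (edgeR log2 fold change 0.997 ± 0.0634, SE, adjusted p = 1.55e-08). SLC7A5 (chromosome 16, 87830023 to 87869488) encodes LAT1, which takes up leucine and other large neutral amino acids. It measured 410.0, 407 and 404 CPM in NOZ-R, against 119, 115 and 134 CPM in NOZ. The NOZ-R libraries were tightly grouped and well apart from NOZ (edgeR log2 fold change 1.73 ± 0.0623, SE, adjusted p = 5.09e-11).

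The other light chains went both ways. SLC7A6, whose product y+LAT2 exchanges cationic for neutral amino acids, measured 26.0, 24.2 and 24.2 CPM in NOZ-R and 12.6, 11.1 and 9.94 CPM in NOZ. Its log2 fold change from edgeR was 1.14 ± 0.102 (SE, adjusted p = 4.73e-07). SLC7A6 and SLC7A5 lie on chromosome 16, whose median log2 fold change was 0.21. With chromosome medians removed, SLC7A6 was at 0.92 and SLC7A5 at 1.52. In the test against a 2-fold change SLC7A6 did not pass (edgeR adjusted p = 0.268). SLC7A6 shares 3371 exon bases with SLC7A6OS on the opposite strand, which itself was higher by 0.51. The library protocol describes no step that marks strand and no strand setting is given, so their reads may not have been told apart. SLC7A11 encodes xCT, which imports cystine, the source of cysteine for glutathione, in exchange for glutamate. It was the tested light chain that fell, to 119, 128 and 131 CPM in NOZ-R, against 171, 188 and 172 CPM in NOZ. The lines did not overlap, and the log2 fold change from edgeR was -0.49 ± 0.0621 (SE, adjusted p = 1.31e-05). Its antisense neighbour SLC7A11-AS1 shares 865 exon bases with it and averaged 0.476 CPM in NOZ-R and 2.27 CPM in NOZ. SLC7A7, the partner of SLC3A2 known as y+LAT1, was low and did not pass, at 0.773, 2.10 and 1.34 CPM in NOZ-R and 0.698, 0.332 and 1.28 CPM in NOZ (log2 fold change 0.89, edgeR adjusted p = 0.113). It passed without NOZ replicate 3 (log2 fold change 1.41, edgeR adjusted p = 0.0271) or without NOZ-R replicate 1 (log2 fold change 1.21, edgeR adjusted p = 0.0460). The value was 0.48 without NOZ-R replicate 2 and 0.53 without NOZ replicate 2 (edgeR adjusted p = 0.464 and 0.312). The light chain SLC7A8 had 5, 9 and 0 counts in NOZ-R and 0, 1 and 0 counts in NOZ, too few to be tested. SLC3A1, the heavy chain used in kidney and gut, had 1, 0 and 0 counts in NOZ-R and 0, 1 and 0 in NOZ, and its light chain partner SLC7A9 had at most 4 counts in any library.

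Levels of different genes were compared on the deposited FPKM scale (counts scaled to gene length and library size), which divides by gene length but has no correction for library composition. The 5 light chains that pair with SLC3A2 (SLC7A5, SLC7A6, SLC7A7, SLC7A8 and SLC7A11) summed to 97.6 ± 0.485 FPKM in NOZ-R and 47.8 ± 1.73 FPKM in NOZ (SD, n = 3 each). SLC7A5 made up 83.7% ± 0.584 of that sum in NOZ-R and 56.2% ± 2.83 in NOZ (SD, n = 3 each). SLC7A11 made up 12.8% ± 0.639 in NOZ-R and 40.2% ± 2.77 in NOZ (SD, n = 3 each). The light chain pool thus held mostly SLC7A5 in NOZ-R, while in NOZ it was shared between SLC7A5 and SLC7A11. The summed light chains stood at 2.92, 2.81 and 2.85 times SLC3A2 in the NOZ-R libraries and at 2.32, 2.75 and 2.62 times SLC3A2 in the NOZ libraries. The ratio of SLC7A11 to SLC3A2 was 0.366 ± 0.0138 in NOZ-R and 1.03 ± 0.135 in NOZ (SD, n = 3 each). None of these quantities overlapped between the lines. With 3 libraries against 3, an exact two-sided permutation test cannot go below p = 0.1, which each reached. Adjusted over the 23 such sums, shares and ratios computed, this became 0.128.

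**Figure D2:**
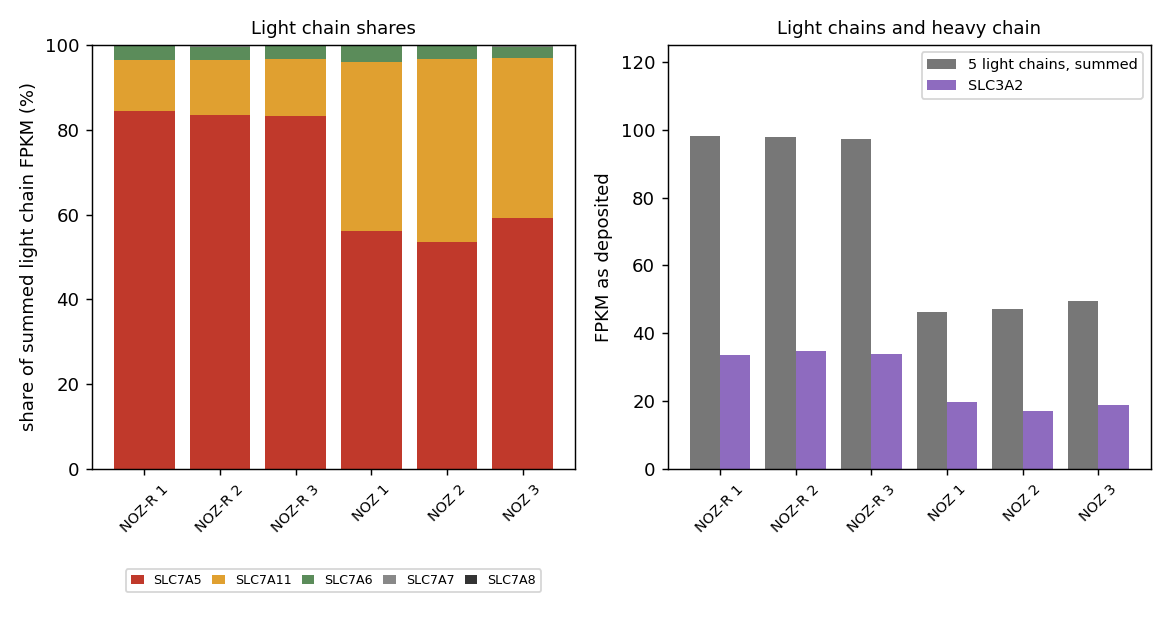
Left, share of the summed FPKM of 5 SLC7 light chains taken by each, in percent, for each library. Right, summed light chain FPKM beside SLC3A2 FPKM for each library. SLC7A5 took 83.3% to 84.4% in the NOZ-R libraries and 53.5% to 59.1% in the NOZ libraries.

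Both tested transporters of cationic amino acids rose. SLC7A1 encodes CAT1, the widely expressed carrier of arginine and lysine. It measured 203, 211 and 203 CPM in NOZ-R, against 141, 136 and 142 CPM in NOZ. This was a modest difference with no overlap (edgeR log2 fold change 0.56 ± 0.0535, SE, adjusted p = 8.97e-07). SLC7A1 lies on chromosome 13, whose 242 tested genes had a median log2 fold change of -0.38, and with chromosome medians removed its value was 0.94. SLC7A2, on chromosome 8, encodes CAT2 and its splice form of lower affinity. It measured 19.0, 20.7 and 23.7 CPM in NOZ-R, against 0.997, 1.05 and 1.08 CPM in NOZ. The NOZ-R libraries lay far above NOZ, and the difference was estimated by edgeR at 4.33 ± 0.160 on the log2 scale (SE, adjusted p = 6.28e-11). In counts, SLC7A2 had 1034 over the NOZ-R libraries and 55 over the NOZ libraries, 20.2 times as much per library size (95% counting interval 15.4 to 27.0). Its share of the summed FPKM of SLC7A1, SLC7A2 and SLC7A3 was 9.09% ± 0.981 in NOZ-R and 0.722% ± 0.0332 in NOZ (SD, n = 3 each). SLC7A1 thus remained the main transcript of the group. SLC7A3 and SLC7A4 had 0 counts in every library.

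Among the SLC38 carriers of small neutral amino acids and glutamine, the main transcript was slightly lower and a minor member fell clearly. SLC38A2 encodes SNAT2, a sodium-coupled carrier that is induced in many cells when amino acids run short. It measured 1290.3, 1331 and 1461 CPM in NOZ-R, against 1526, 1783 and 1536 CPM in NOZ. The lines came close without overlapping (edgeR log2 fold change -0.25 ± 0.0651, SE, adjusted p = 0.00484). SLC38A4 encodes SNAT4, a relative best known from liver and placenta. It measured 6.40, 7.92 and 10.1 CPM in NOZ-R, against 36.4, 42.4 and 35.2 CPM in NOZ. The log2 fold change from edgeR was -2.23 ± 0.135 (SE, adjusted p = 9.31e-09). SLC38A1, SLC38A2 and SLC38A4 lie in the same stretch of chromosome 12, between positions 46183063 and 46832408, and all 3 belong to transport system A.

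SLC38A1 encodes SNAT1, a glutamine carrier, and did not pass, with 622, 657 and 708 CPM in NOZ-R and 591, 724 and 562 CPM in NOZ. Its log2 fold change from edgeR was 0.08 ± 0.0820 (SE, adjusted p = 0.409), turned to -0.048 under scaling by library size alone, and became 0.20 without NOZ replicate 2 (edgeR adjusted p = 0.000943). As shares of the summed FPKM of SLC38A1, SLC38A2 and SLC38A4, SLC38A4 held 0.704% ± 0.115 in NOZ-R and 2.87% ± 0.0433 in NOZ, and SLC38A2 held 75.4% ± 0.249 in NOZ-R and 77.6% ± 0.832 in NOZ (SD, n = 3 each). SLC38A9, the arginine sensor of the lysosome that signals to mTORC1, averaged 39.9 ± 2.46 CPM in NOZ-R and 32.0 ± 3.86 CPM in NOZ (SD, n = 3 each). The call, at 0.31 on the log2 scale (edgeR adjusted p = 0.00974), was lost under library size scaling and under both limma settings on FPKM. SLC38A5, a glutamine carrier of system N on the X chromosome, averaged 32.2 ± 3.14 CPM in NOZ-R and 36.7 ± 3.84 CPM in NOZ (SD, n = 3 each). At -0.19 on the log2 scale it did not pass (edgeR adjusted p = 0.105). Its call went both ways with the setting. SLC38A5 passed as higher, at 0.25, with the X chromosome median of -0.44 removed (edgeR adjusted p = 0.0417). It passed as lower under library size scaling, both limma settings on FPKM, GC correction with or without the replicate block, and without NOZ replicate 2, where its value was -0.28 (edgeR adjusted p = 0.00727). The lysosomal glutamine carrier SLC38A7 at -0.10, SLC38A6 at 0.13 and SLC38A10 at 0.07 did not pass (edgeR adjusted p = 0.309, 0.303 and 0.365). SLC38A6 and SLC38A10 turned to values below 0 in some settings, and SLC38A7 passed as lower in 4 of 20. With chromosome medians removed SLC38A6 passed as higher at 0.32 (edgeR adjusted p = 0.0233). SLC38A11, an orphan carrier, had 15, 10 and 9 counts in NOZ-R and 0 in every NOZ library. Against 3 counts over the NOZ group, a floor of 0.0567 CPM, SLC38A11 stood 12.2-fold higher in NOZ-R. That ratio leaves out the counting error of the 34 counts over the NOZ-R libraries. SLC38A11 was too low to be tested.

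**Figure D3:**
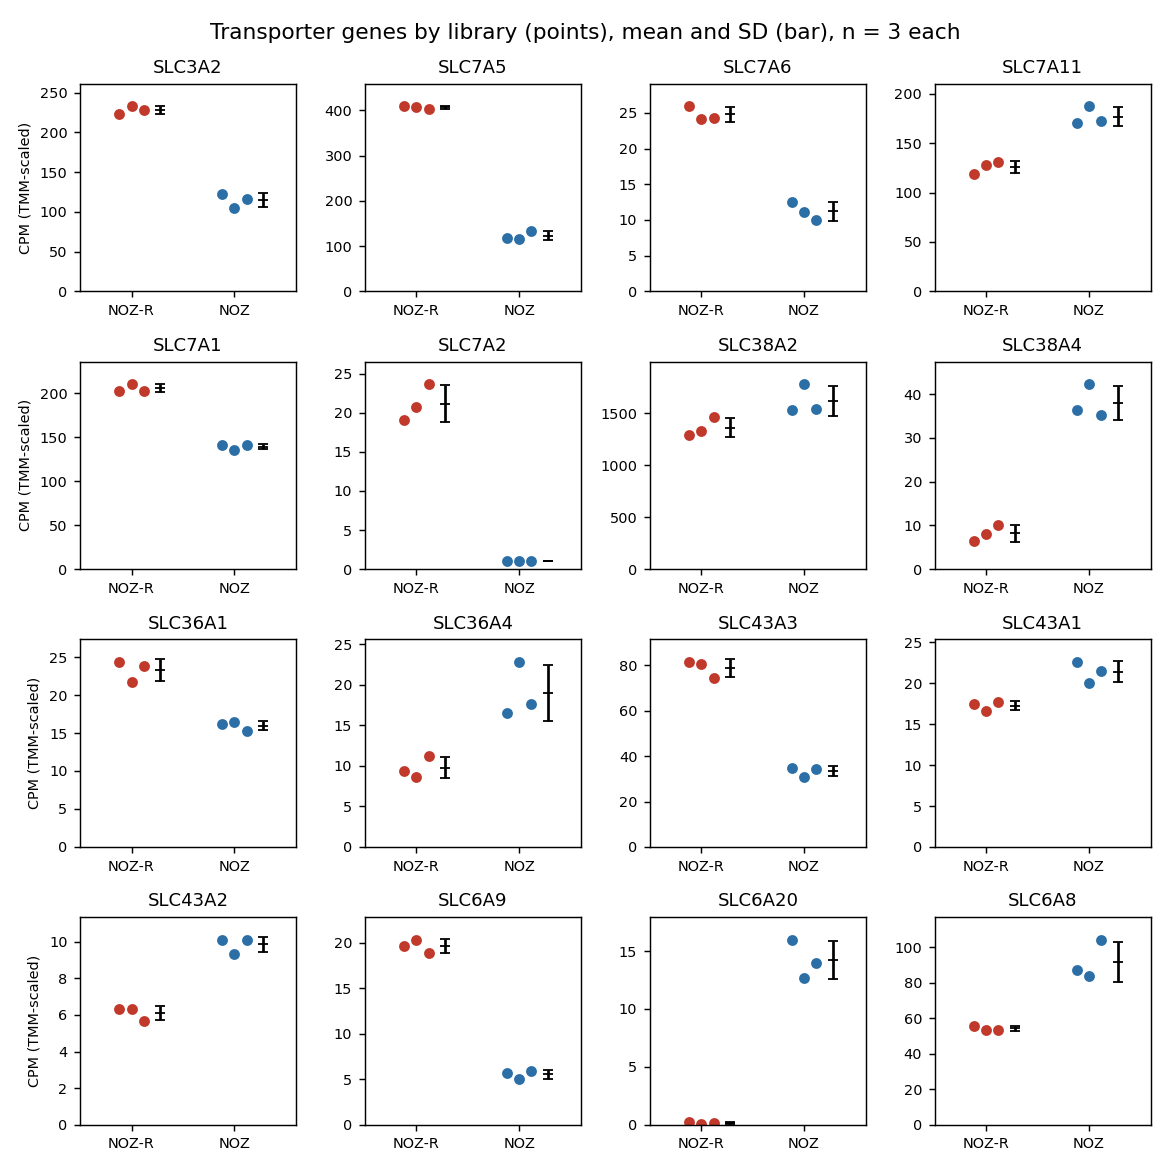
TMM-scaled CPM of 16 transporter genes, with 1 point per library, and the mean and SD beside them (n = 3 each; vertical axes start at 0 and differ between panels). The panels hold called genes alone. In every panel the NOZ-R and NOZ points do not overlap, as held for 65.3% of all tested genes. SLC38A2 shows the narrowest gap relative to its level.

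The proton-coupled SLC36 carriers moved apart. SLC36A1 encodes PAT1, which exports small neutral amino acids from lysosomes. It measured 24.4, 21.7 and 23.8 CPM in NOZ-R, against 16.1, 16.5 and 15.3 CPM in NOZ (edgeR log2 fold change 0.54 ± 0.0891, SE, adjusted p = 0.000136). SLC36A4 encodes PAT4, a carrier with affinity for proline and tryptophan. It measured 9.38, 8.66 and 11.2 CPM in NOZ-R, against 16.5, 22.8 and 17.6 CPM in NOZ. SLC36A4 was thus lower in every NOZ-R library (edgeR log2 fold change -0.97 ± 0.140, SE, adjusted p = 4.48e-05). SLC36A2 had 0 counts in every library and SLC36A3 had at most 1.

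The SLC43 genes went both ways. SLC43A3, which in human cells carries purine nucleobases and not amino acids, measured 81.6, 80.5 and 74.3 CPM in NOZ-R, against 34.9, 30.9 and 34.3 CPM in NOZ. SLC43A3 was more than 2-fold higher, with an edgeR estimate of 1.24 ± 0.0742 (log2, SE, adjusted p = 8.36e-09). SLC43A3 shares 1349 exon bases with a read-through gene model on its own strand, so its counts depend on how such reads were assigned. The carriers of branched-chain and other neutral amino acids SLC43A1 (LAT3) and SLC43A2 (LAT4) both fell. SLC43A1 measured 17.4, 16.6 and 17.7 CPM in NOZ-R, against 22.6, 20.1 and 21.5 CPM in NOZ (log2 fold change -0.31 ± 0.0888, SE, edgeR adjusted p = 0.00789). SLC43A2 measured 6.35, 6.31 and 5.69 CPM in NOZ-R, against 10.1, 9.34 and 10.1 CPM in NOZ (log2 fold change -0.68 ± 0.122, SE, edgeR adjusted p = 0.000284). Leucine can enter through LAT1, LAT3 and LAT4, and of their genes SLC7A5 was higher while SLC43A1 and SLC43A2 were lower.

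In the SLC6 family a glycine carrier rose and a proline carrier fell to a few counts. SLC6A9 encodes GlyT1, which takes up glycine. It measured 19.6, 20.3 and 18.9 CPM in NOZ-R, against 5.68, 5.03 and 5.88 CPM in NOZ (edgeR log2 fold change 1.83 ± 0.111, SE, adjusted p = 9.65e-09). SLC6A9 shares 404 exon bases with CCDC24 on the opposite strand, which averaged 5.12 CPM in NOZ-R and 3.12 CPM in NOZ. SLC6A20 (chromosome 3, 45755450 to 45796535) encodes SIT1, a carrier of proline and other imino acids. It measured 0.276, 0.0618 and 0.201 CPM in NOZ-R, against 16.0, 12.7 and 13.99 CPM in NOZ. Only 9 counts were found over the NOZ-R libraries against 758 over the NOZ libraries, so SLC6A20 was 78.3-fold lower in NOZ-R (95% counting interval 41.0 to 172). The fitted log2 fold change from edgeR was -6.23 ± 0.266 (SE, adjusted p = 2.83e-10). SLC6A20 entered the test through its NOZ level alone.

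Among SLC6 carriers of other solutes, 2 were expressed. SLC6A8, the creatine transporter gene on the X chromosome, measured 55.7, 53.4 and 53.6 CPM in NOZ-R, against 86.8, 83.6 and 104 CPM in NOZ (log2 fold change -0.75 ± 0.0821, SE, edgeR adjusted p = 3.15e-06). With the X chromosome median removed its value was -0.31 (edgeR adjusted p = 0.00582). SLC6A6, the taurine transporter gene, measured 249, 253 and 255 CPM in NOZ-R and 269.7, 277 and 274 CPM in NOZ. The lines did not overlap, but the log2 fold change of -0.12 ± 0.0494 did not pass (SE, edgeR adjusted p = 0.0569), and it passed in 8 of 20 alternative settings, among them without NOZ replicate 2 (log2 fold change -0.11, edgeR adjusted p = 0.0316). SLC6A6 shares 239 exon bases with GRIP2 on the opposite strand, which averaged 4.001 CPM in NOZ-R and 0.0166 CPM in NOZ. Untested SLC6 genes included SLC6A7, a brain proline carrier, with 0, 1 and 1 counts in NOZ-R and 7, 3 and 9 counts in NOZ. SLC6A16, an orphan carrier, had 14, 5 and 2 counts in NOZ-R and 10, 9 and 14 counts in NOZ. SLC6A4, the serotonin transporter gene, had 7, 4 and 0 counts in NOZ-R and 3, 2 and 1 counts in NOZ, and SLC6A12, the betaine carrier gene, had 2, 4 and 6 counts in NOZ-R and 1, 2 and 3 counts in NOZ. Over all families, 12 of the untested genes, among them SLC3A1, SLC7A9 and SLC36A3, had some counts but at most 4 in any library.

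On the FPKM scale, SLC38A2 was the most abundant transporter transcript in both lines, at 199.9 ± 12.5 FPKM in NOZ-R and 259.5 ± 24.0 FPKM in NOZ (SD, n = 3 each). In NOZ-R the next was SLC7A5 at 81.7 ± 0.932 FPKM, followed by SLC38A1 at 63.2 ± 3.91, SLC3A2 at 34.2 ± 0.610, SLC6A6 at 29.3 ± 0.242 and SLC7A1 at 25.6 ± 0.529 (SD, n = 3). These neighbours in NOZ-R were each separated by more than their spread. In NOZ the next was SLC38A1 at 65.4 ± 9.17 FPKM, followed by SLC6A6 at 34.7 ± 0.572, SLC7A5 at 26.9 ± 2.18, SLC7A11 at 19.2 ± 1.06, SLC7A1 at 19.0 ± 0.387 and SLC3A2 at 18.7 ± 1.37 (SD, n = 3). The last 3 of these did not differ beyond their spread. The summed FPKM of the 52 genes was 521 ± 16.2 in NOZ-R and 524 ± 30.1 in NOZ (SD, n = 3 each, exact two-sided permutation p = 0.9). This sum has no correction for library composition, for which the TMM factors were 0.954 to 0.961 in NOZ-R and 1.04 to 1.05 in NOZ. Whether the sums are alike with that correction was not tested. Within that sum, SLC38A2 held 38.3% ± 1.19 in NOZ-R and 49.4% ± 1.69 in NOZ, and SLC7A5 held 15.7% ± 0.649 in NOZ-R and 5.15% ± 0.615 in NOZ (SD, n = 3 each).

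**Figure D4:**
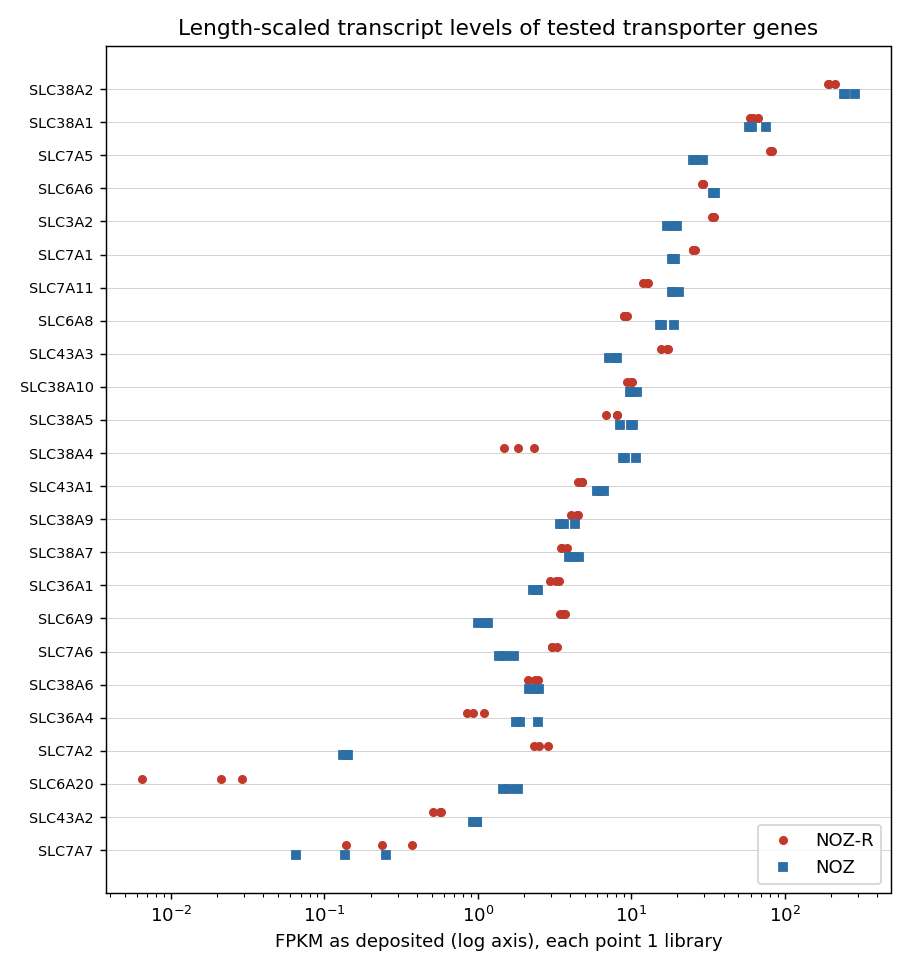
Deposited FPKM on a log axis for the 24 tested transporter genes, ordered by mean level, with 1 point per library (NOZ-R circles, NOZ squares). SLC38A2 is highest in both lines, and SLC7A5 lies at 81.7 FPKM in NOZ-R and 26.9 FPKM in NOZ on average.

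Genes around these transporters were described from lists of the amino acid response and related carriers. The lists were chosen with earlier results of these data known, so their counts describe the lists and do not test them. Of the 22 tested genes of the GCN2 and ATF4 axis, 17 rose in NOZ-R and 1 fell, against 30.4% called higher and 29.8% called lower among all tested genes. Their median log2 fold change was 0.81, against -0.01 over all tested genes. NUPR1, a stress-induced chromatin protein gene, was higher by 3.43 but had under 10 counts in each NOZ library and entered the test through NOZ-R alone. It was followed by DDIT4, an inhibitor of mTORC1, at 2.93 and the transcription factor gene ATF3 at 2.13 (edgeR adjusted p = 2.16e-06 for NUPR1, 4.96e-12 for DDIT4 and 2.27e-08 for ATF3). ATF4 itself was higher by 1.13 and STC2, a secreted glycoprotein gene, was the lower one at -1.37 (edgeR adjusted p = 1.27e-09 for ATF4 and 0.0137 for STC2). STC2 had 15, 4 and 7 counts in NOZ-R and 18, 32 and 22 counts in NOZ. It entered the test through its NOZ level alone. It was not called with a filter of 1 CPM in 3 libraries or at a threshold of 0.01. Nor was it called in the test against a 2-fold change or without NOZ-R replicate 2. Of the 22 genes, 4 did not pass, among them ASNS at -0.41 (edgeR adjusted p = 0.394), with at most 17 counts in any library. ATF4, STC2 and ASNS were named after their values were seen. Beside this, of the 6 transporter genes known as targets of the response, SLC3A2, SLC7A5, SLC7A1 and SLC6A9 were higher and SLC7A11 and SLC38A2 lower in NOZ-R. Of the 7 tested partners and regulators, 6 were higher and 1 did not pass, beside 30.4% called higher among all tested genes. The kinase gene SGK1 was higher by 2.34, the lysosomal regulator gene TFEB by 1.83 and NFE2L2, whose product NRF2 is a known activator of SLC7A11, by 0.84 (edgeR adjusted p = 8.81e-08, 3.61e-05 and 8.02e-07).

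All 4 tested SLC1 genes were called, beside 60.2% of all tested genes. SLC1A4 and SLC1A5, carriers of serine and alanine, were higher by 2.70 and 1.33 (edgeR adjusted p = 8.28e-09 and 3.26e-09). SLC1A1 was lower at -3.47 (edgeR adjusted p = 3.70e-13). SLC1A3, with 0 counts in every NOZ library, entered the test through NOZ-R alone. In NOZ-R it stood 840.0-fold above a floor of 3 counts over the NOZ libraries. Of the 7 tested other amino acid and peptide transporters, 3 were higher and 4 did not pass, so 42.9% were called, below the 60.2% called among all tested genes. The higher ones were SLC15A3, a lysosomal carrier of histidine and peptides, at 2.61, MFSD12, a cysteine carrier of lysosomes and melanosomes, at 0.38 and SLC15A4, a relative of SLC15A3, at 0.25 (edgeR adjusted p = 2.02e-09, 0.00137 and 0.0214).

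**Figure D5:**
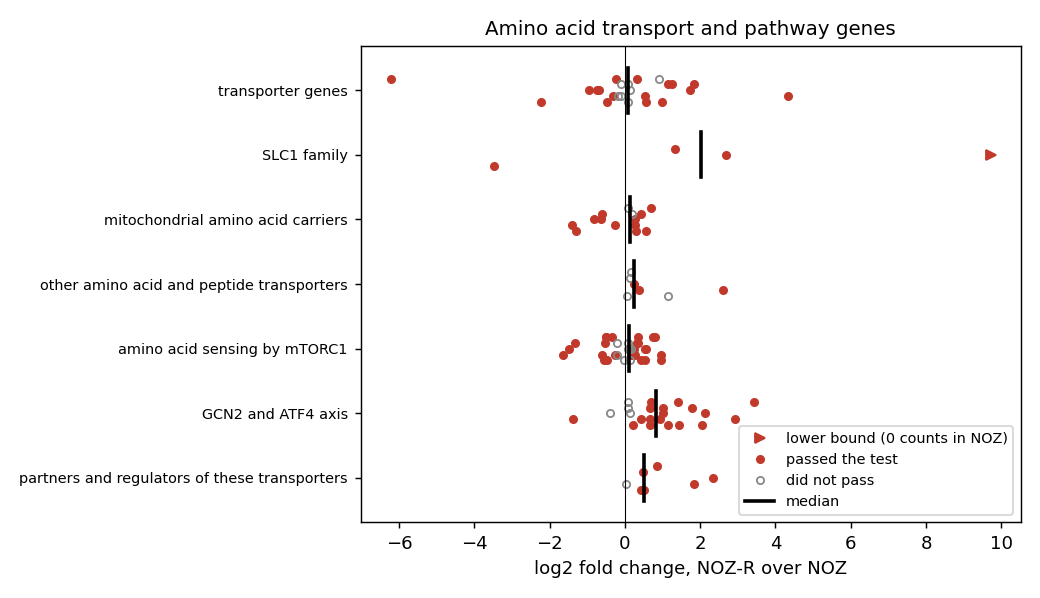
Log2 fold change of NOZ-R over NOZ for tested genes of the transporter families and of 6 lists, with 1 point per gene (filled where the test was passed) and the median as a bar. SLC1A3, at 0 counts in NOZ, is drawn against a floor of 3 counts over the NOZ libraries, labelled as a lower bound. The GCN2 and ATF4 list has a median of 0.81 and the transporter genes 0.08.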

How the data were processed

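RNA-seq of 3 NOZ-R and 3 NOZ samples was analysed, grouped by their titles. The authors deposited raw counts per gene and FPKM values for the same 63140 genes. The FPKM values equal the count over the library's total count and a fixed length per gene. The submitters' processing notes name fastp 0.22.0 and the build GRCh38. No aligner, counting tool, strand setting or annotation release is given in the sources used here.

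Counts were fitted with edgeR 4.0.16 in R 4.3.3 (filterByExpr on the line, TMM factors of 0.954 to 0.961 in NOZ-R and 1.04 to 1.05 in NOZ, glmQLFit, glmQLFTest) over 14386 genes, with Benjamini-Hochberg adjustment at 0.05. The SE is the log2 fold change divided by the square root of F, and it can be too small at low counts. CPM values use total counts times TMM factors. PCR copies could not be recognised, so intervals and floors (3 counts over a line) hold counting error alone. Positions, exon overlaps and GC content (96.8% of tested genes) came from GENCODE's GRCh38 annotation by symbol, which may differ from the authors' release. Alternatives used DESeq2 1.42.0 and limma 3.58.1. The method was run on simulated counts in which few genes changed, as many up as down on average. It was thus not tested for differences as common as those between these lines.

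Every tested transporter gene was named. Library values were given for SLC3A2, SLC7A5, SLC7A11, SLC7A1, SLC38A2, SLC6A9 and the 8 largest called increases and decreases averaging 1 CPM or more, and some others were added. From each list up to 3 called genes in each direction were named. Members and lists were chosen with earlier results of these data known. Mean chi-square per gene between replicates, a check for copied libraries, was 2.16 to 11.2. No library was taken as a copy of another, and all 6 were kept. The pairs with NOZ replicate 2 had the highest values, 11.2 and 9.64, so the check does not show that replicates agree.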

Additional observations from a re-analysis of the deposited data

How the results depend on the processing

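Of the 17 transporter calls, all kept their direction in the 20 alternatives. A test against a 2-fold change left 4 higher and 2 lower transporter genes (847 and 442 over all genes). Apart from that test, SLC38A9 was the only called transporter gene to lose its call, under library size scaling and limma on log2(FPKM + 1) and log2(FPKM + 0.1). Removing chromosome medians gave 11 higher and 9 lower (4114 and 3838 over all genes). Leaving out 1 library gave 9 to 11 higher and 8 to 10 lower (4018 to 4634 and 3833 to 4328 over all genes). Values that changed sign belonged to genes that did not pass: SLC38A1 was -0.048, -0.040 and -0.040 under library size scaling, FPKM + 1 and FPKM + 0.1; SLC38A6 was -0.00081 and -0.0011 under the 2 FPKM settings; SLC38A10 was -0.058, -0.053 and -0.058 under library size scaling, FPKM + 1 and FPKM + 0.1, and -0.043 under GC correction alone and -0.042 with the replicate block added; and SLC38A5 was 0.25 with chromosome medians removed. The cause was not tested; the median over all genes was -0.14 under library size scaling, -0.08 with FPKM + 1 and -0.13 with FPKM + 0.1. The replicate numbers were not shown to pair samples: same-numbered deviations correlated at 0.104, -0.0299 and -0.0663, and not every sample correlated best with its own number. A replicate block gave 9 higher and 8 lower transporter genes (4324 and 4180 over all genes) and changed no transporter call. With GC correction it gave 9 and 11 (4024 and 4842 over all genes), as GC correction alone did (4135 and 4994 over all genes). Genes under about 1 CPM, such as SLC7A7, are limited by depth.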

Other observations

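Mitochondrial carriers and the amino acid sensing machinery went both ways. Of 14 tested mitochondrial amino acid carriers, 6 were higher and 6 lower in NOZ-R, with a median log2 fold change of 0.14, against 30.4% higher and 29.8% lower among all tested genes. The glutamate carrier gene SLC25A22 was higher by 0.69, the mitochondrial serine carrier gene SFXN1 by 0.55 and SFXN5 by 0.42 (edgeR adjusted p = 5.30e-06, 1.23e-06 and 0.0249). SFXN2 at -1.40, the basic amino acid carrier gene SLC25A29 at -1.31 and SFXN3 at -0.81 were lower (edgeR adjusted p = 4.86e-06, 3.49e-06 and 6.47e-08). SFXN2 and SFXN3 lie on chromosome 10, whose median was -0.60. Under library size scaling 2 of these carriers were higher, beside 3316 of all 14386 tested genes.

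Of 33 tested genes of amino acid sensing by mTORC1, 14 were higher and 11 lower in NOZ-R (median log2 fold change 0.10). The 11 lower are near the 29.8% called lower among all tested genes, and 30.4% of all tested genes were called higher. The folliculin partner gene FNIP2 was higher by 0.96, the leucine sensor gene SESN2 by 0.94 and KPTN by 0.81 (edgeR adjusted p = 1.43e-06, 9.62e-06 and 0.00265). The Rag GTPase gene RRAGB at -1.64, the sestrin gene SESN3 at -1.48 and CASTOR2, from the arginine sensor family, at -1.32 were lower (edgeR adjusted p = 9.87e-08, 1.10e-07 and 5.94e-07). RRAGB lies on the X chromosome, with a median of -0.44, and CASTOR2 on chromosome 7, with a median of -0.30. With chromosome medians removed, 10 of the sensing genes were higher and 7 lower, beside 4114 and 3838 over all genes. Under library size scaling 8 of them were higher, beside 3316 over all genes.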
